A study of Salmo salar with 12 samples.

Results

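Among the probes that gave signal on every array of salmon liver, the 100 whose smallest rise from one uranium dose to the next was largest were selected and described. A probe qualified if all of its spots were well above background on all 12 arrays, which 20456 of the 55468 salmonid probes (36.9%) were. Its level was the log2 intensity minus the 75th percentile of the same array, its 3 steps were the differences between the mean levels of neighbouring doses, and its score was the smallest of those steps. The 100 probes of highest score made up 0.489% of the qualifying probes. The order of the 4 group means, the size of the steps and the rise from control to the highest dose were therefore fixed by the selection, and they are given below as a description without a test.

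Liver RNA came from juvenile Atlantic salmon (parr) held in the dark for 48 h in a static system of lake water. Feeding had ended 48 h before transport to the exposure laboratory, and an acclimation in lake water preceded the exposure. The control group received no uranium, while the low U group received 0.25 mg/L, the medium U group 0.5 mg/L and the high U group 1.0 mg/L of depleted uranium. It was given as dissolved uranyl acetate dihydrate, so that acetate was added together with uranium in every exposed group. Each group had 3 samples, each hybridised to 1 single-colour (Cy3) array of a custom salmonid design, and each of 3 slides carried 1 array of every group. No replicate tanks are described, so that a tank and its dose cannot be told apart, and error values measure only the spread between these samples.

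Waterborne uranium enters fish as the uranyl ion and its complexes, which bind phosphate and carboxyl groups of proteins and membranes, and the liver takes part in handling and excreting metals. A transcript that tracks dose can rise evenly, or can be fully raised at the lowest dose and stay there. Ranking by the smallest step asks for some rise at every dose, but it does not ask for equal steps. In whole liver, fewer cells of a type and less RNA per cell cannot be told apart. The probes were designed on assembled EST sequences and have no genome coordinates or sequences in the files used here, so none are printed.

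The rising order was one of 24 possible orders of 4 group means. It was found in 1241 of the 20456 always-detected probes (6.07%), which made it the 4th most frequent order, whereas 1164 probes (5.69%) fell at every step. The most frequent orders were medium below low below high below control (2596 probes, 12.7%) and control below high below low below medium (2062 probes, 10.1%). The scores of the 100 probes ran from 0.49 to 0.1447 with a median of 0.18, and 32 of them reached 0.2. The probe just outside, at place 101, scored 0.1439, so the limit at 100 did not fall in a gap. Probes ranked by their smallest fall had nearly the same scores, 0.45 at the first place and 0.143 at place 100.

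Averaged over the 100 probes, the level on the control arrays was -0.34, -0.06 and 0.40 (log2, relative to the mean of the control arrays) for replicates 1, 2 and 3. The low U arrays were at 0.39, 0.61 and 0.56, the medium U arrays at 0.45, 0.97 and 0.89, and the high U arrays at 0.80, 1.30 and 1.09. Control replicate 3 lay above low U replicate 1, medium U replicate 1 lay below both other low U replicates, and high U replicate 1 lay below both other medium U replicates, so every pair of neighbouring doses overlapped. The low U group stood 0.52 ± 0.11 (SD, n = 3) above the control mean, the medium U group 0.77 ± 0.28 and the high U group 1.06 ± 0.25. The SD of the controls was 0.38.

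The climb depended on what the arrays were scaled to. The 75th percentile of the intensity ranged from 55.7 to 73.8 in the control, from 113 to 138 in the low U group, from 122 to 154 in the medium U group and from 68.8 to 94.7 in the high U group. Against the mean of 7 spike-in probes, whose RNA is added to each labelling reaction, that percentile stood above the control by 0.79 (log2) in the low U group, by 0.99 in the medium U group and by 0.23 in the high U group. Scaled to those spike-ins, the mean of the 100 probes was -0.40, -0.27 and 0.67 on control replicates 1, 2 and 3, and 1.03, 1.60 and 1.30 on the low U arrays. It was 1.44, 2.15 and 1.69 on the medium U arrays and 0.98, 1.63 and 1.28 on the high U arrays. The group means were thus 1.31 ± 0.29 for low U, 1.76 ± 0.36 for medium U and 1.30 ± 0.33 for high U (SD, n = 3), highest at medium U. None of the probes (0 of 100) rose at all 3 steps. This scaling moves every probe of an array by the same amount. The fall of that amount from 0.99 to 0.23 was larger than the largest medium to high step of the 100, 0.68. The 0 thus follows from 1 shared shift and is not 100 separate outcomes. From medium to high U the mean of the 100 probes thus went up when set against the other salmonid probes of the array and down when set against the spike-ins. What set the brightness of the arrays was not tested.

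The steps were unequal in size. The step from control to low U had a median of 0.47 (range 0.15 to 1.54), that from low to medium U a median of 0.20 and that from medium to high U a median of 0.27 (range 0.14 to 0.68). The corresponding medians over all always-detected probes were 0.08, -0.04 and 0.00. The first step was the largest in 70 of the 100 probes, and the step from low to medium U was the smallest in 54. From control to high U the probes rose by 1.43-fold to 4.49-fold with a median of 2.06-fold, 55 of them by at least 2-fold, and a median of 46.5% of the rise was reached at 0.25 mg/L. In 1 probe, 35880, a spot on low U replicate 2 was marked as an outlier by the scanner software. Without that spot, its level fell by 0.12 from low to medium U.

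The steps were small beside the spread between arrays. The residual SD within groups had a median of 0.46 over the 100 probes and of 0.29 over all always-detected probes, and 83 of the 100 lay above the latter value. The standard error of a step had a median of 0.38. It took no account of the slide, although each slide carried an array of every group. The smallest step exceeded its own standard error in 7 of the 100 probes (0.0489% of all always-detected probes). The ranking took the probes by that step, so nothing is read from the count except that the smallest step did not exceed its error in the others. The 7 were probes 19205, 27961, 51807, 35560, 8509, 32210 and 1036, of which the last 3 have names. The additional spread was found in the control (median SD 0.48, against 0.29 over all always-detected probes), at medium U (0.43 against 0.24) and at high U (0.40 against 0.23), but not at low U (0.24 against 0.24).

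The deviations within groups were shared among the probes. Control replicate 1 was the lowest control in 60 of the 100 probes (31.6% of all always-detected probes), medium U replicate 1 was the lowest of its group in 69 (38.5%), and high U replicate 2 was the highest of its group in 61 (33.4%). All 3 of these held together in 38 of the 100 probes and in 4.67% of all always-detected probes, and in 6 of the 10 probes of highest score. The 3 orders were taken from these same data, so their joint count is a description. Control replicate 1 and high U replicate 2 were both on slide 1, and medium U replicate 1 was on slide 2. Whether the slide accounts for these deviations was not tested. The first component of the deviations took 53.1% of their sum of squares in the 100 probes and 34.9% in all always-detected probes. The 100 probes are thus not 100 independent measurements, since the same arrays were high or low in many of them.

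Probe 19205, with the highest score, was at 3.35, 3.91 and 3.84 (log2 level) in the control, 4.07, 4.86 and 3.84 at low U, 4.11, 5.18 and 4.95 at medium U, with 5.21, 4.92 and 6.14 at high U. Its 3 high U arrays all lay above the control and low U ranges, while the ranges of every pair of neighbouring doses overlapped. It rose by 1.72 ± 0.39 (log2, SE) from control to high U. Probe 34415 had the largest rise of the 100, 4.49-fold, on control values of 1.96, 3.79 and 5.27. Its low U arrays were at 5.30, 4.79 and 4.33, its medium U arrays at 4.42, 5.91 and 5.52, and its high U arrays at 5.19, 6.55 and 5.77. The highest control array lay above 1 of the high U arrays, and the mean rise of 2.17 ± 0.72 (SE) stood beside a control SD of 1.66.

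Probe 32222 was at 2.08, 3.43 and 4.36 in the control, 3.94, 4.20 and 3.92 at low U, 3.64, 5.06 and 4.68 at medium U, with 4.36, 5.59 and 4.86 at high U. Probe 45708 was at 1.42, 2.67 and 3.43 in the control, 3.30, 3.40 and 3.06 at low U, 3.11, 4.71 and 3.82 at medium U, with 3.50, 5.03 and 4.05 at high U. Probes 34415, 32222 and 45708 share one profile, with control replicate 1 lowest, control replicate 3 highest among the controls, and high U replicate 2 highest of all. Probes 44798, 52827 and 54622 had it as well, with group means from control to high U of 4.08, 4.56, 4.85 and 5.16 for probe 44798. The means were 1.60, 2.05, 2.33 and 2.79 for probe 52827, and 3.38, 3.69, 3.95 and 4.32 for probe 54622. In these 6 probes at most 5 of the 9 exposed arrays lay above every control.

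The other probes among the 10 of highest score differed in profile. Probe 44017 was dim, with group means of -1.49, -1.02, -0.45 and -0.17, and high U replicates at -1.34, 0.59 and 0.25. Probe 8927 was bright, with means of 6.45, 6.82, 7.10 and 7.57, and its high U arrays lay close together (SD 0.06) while its controls did not (SD 0.94). Probe 23849 had control values of 1.37, 1.49 and 0.58, low U values of 0.70, 1.55 and 2.32, medium U values of 1.60, 2.43 and 1.89, and high U values of 1.82, 2.64 and 2.25. All but 1 of its exposed arrays lay above every control. At the other end of the ranking, just inside the 100, probe 31034 had means of 2.84, 3.21, 3.35 and 3.51, probe 11885 of 3.78, 4.36, 4.50 and 4.92, and probe 49539 of 1.73, 2.29, 2.48 and 2.62. Just outside, probe 18683 had means of 3.33, 3.72, 4.0 and 4.15, probe 19352 of 3.90, 4.32, 4.46 and 4.90, and probe 24828 of -1.54, -1.38, -1.08 and -0.94.

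Gene names were known for 6 of the 100 probes. The files hold none, and names were tied to 890 probes, 669 of them always detected (3.27%), by way of a list of responding genes. A probe therefore has a name only where it had been called as responding, which sets the named probes apart from the rest whatever their function. The names describe a chromatin reader, an enzyme of protein folding, an autophagy protease, a galectin-like protein and a secreted matrix protein, of unlike roles. The remaining name is that of a bacterial zinc transporter component, so no role in salmon is read from it. In all 6, every exposed array lay above every control array, as in 9.52% of all always-detected probes. The calls that gave the names were made on these same arrays and favour such a separation, so nothing is read from it.

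P4HB (probe 2151, place 46) encodes protein disulfide isomerase, which forms and rearranges disulfide bonds in the endoplasmic reticulum and is the beta subunit of the prolyl 4-hydroxylase that modifies collagen. Its level was 6.87, 7.82 and 7.79 in the control, 9.34, 8.85 and 8.92 at low U, 8.96, 9.17 and 9.53 at medium U, with 9.20, 9.41 and 9.95 at high U. The control stood well apart from all exposed arrays, while the exposed groups overlapped. The group means of 7.50, 9.04, 9.22 and 9.52 gave a 4.07-fold rise to high U (2.02 ± 0.30, log2, SE), of which the first step made 1.54. Among the chaperones and folding enzymes that could be tied to a probe, 1 of 5 gene symbols was among the 100. None of the symbols of the other functional lists examined (electron transport chain, translation, proteasome, antioxidant and metal handling, coagulation, lipid and bile, cell death, cytoskeleton) was. Since so few probes have names, these counts do not describe the lists.

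BRD3 (probe 8509, place 40) encodes a bromodomain protein that binds acetylated histones at transcribed genes. Its level was -1.28, -1.30 and -0.83 in the control, -0.55, -0.51 and -0.71 at low U, -0.54, -0.36 and -0.28 at medium U, with -0.24, 0.18 and 0.06 at high U. Its high U arrays lay above every medium U array, and its low and medium U arrays overlapped. Its rise of 1.14 ± 0.19 (log2, SE) was spread over the steps more evenly than that of the other named probes, with 0.55 at the first step, 0.19 at the second and 0.39 at the last.

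ATG4C (probe 25928, place 70) encodes a cysteine protease that processes ATG8 proteins during autophagosome formation. Its level was -1.14, -1.17 and -0.87 in the control, 0.10, 0.26 and 0.20 at low U, 0.12, 0.56 and 0.76 at medium U, with 0.45, 0.66 and 0.82 at high U. The rise of 1.70 ± 0.20 (log2, SE) was made mostly at the lowest dose (1.25), and the medium and high U ranges overlapped. The RPE-spondin precursor (probe 5647, place 93), a secreted protein with thrombospondin-like and somatomedin B domains, was at -0.63, -1.03 and -0.39 in the control and 0.35, 0.26 and 0.43 at low U. It was at 0.35, 0.57 and 0.57 at medium U and 0.43, 0.92 and 1.11 at high U. Its rise was 1.51 ± 0.22 (log2, SE), and again the first step was the largest (1.03).

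The galectin-related protein GRP-B (probe 1036, place 81), a relative of the sugar-binding galectins, had the smallest residual SD of the 100 probes, 0.14. It was at -0.97, -1.33 and -1.0 in the control, -0.37, -0.21 and -0.47 at low U, -0.32, -0.05 and -0.15 at medium U, with 0.08, -0.05 and -0.07 at high U. The first step (0.76) separated all controls from all exposed arrays. Beyond it, the medium U arrays overlapped with those of low U and of high U, while high U lay wholly above low U. Probe 32210 (place 76) was described as the periplasmic component of a high-affinity zinc transporter. This is the name of a bacterial protein, taken over by sequence similarity, so no role in salmon is given here. It was at 2.22, 1.83 and 1.78 in the control, 2.54, 2.41 and 2.83 at low U, 2.84, 2.80 and 2.75 at medium U, with 2.92, 2.91 and 3.06 at high U. Its 3 high U arrays lay above every other array, although the step from medium to high U was only 0.16.

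Separation between groups was counted over all probes. No always-detected probe (0 of 20456) had its 4 groups in dose order without overlap. Among the 100 probes, the high U arrays all lay above the control arrays in 59 (15.7% of all always-detected probes), the medium U arrays in 36 (17.9%) and the low U arrays in 22 (17.7%). Between neighbouring doses, the medium U arrays all lay above the low U arrays in 1 probe (2.76%), and the high U arrays above the medium U arrays in 6 (7.11%). High U lay wholly above low U in 43 (4.82%), and all 9 exposed arrays lay above all controls in 17 (9.52%). The selection used these same arrays, so nothing is read from these counts. For medium above low U and for high above medium U they were no higher than the shares over all always-detected probes.

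A fit with limma over all 12 arrays, with Benjamini-Hochberg adjustment over 29456 probes, was also made. At an adjusted p under 0.05 and 1.5-fold, 4 of the 100 probes were called higher at low U (4.02% of all probes tested), 11 at medium U (6.68%) and 13 at high U (2.58%), while the F-test over the 4 groups called 7 (4.82%). Arrays of one slide tended to deviate together (median r 0.26 across probes), and with the slide as a block the calls were 8 of the 100 at low U, 15 at medium U, 16 at high U and 10 by the F-test. Over all probes and both directions they went from 1834 to 3646 at low U, from 1093 to 2036 at high U and from 1420 to 2957 by the F-test. They rose at medium U as well. For the fit with the slide block, no share of all probes called higher is given here. Calls thus also rose over all probes, and the added calls are not read as a trait of the 100. All 6 named probes were among those called at medium and at high U. A name was given only through a list of genes called as responding on these same arrays, so nothing is read from this. For the steps from low to medium U and from medium to high U, the fit called 0 of the 100 probes and 0% of all probes tested as higher. At an unadjusted p under 0.05, 0 of the 100 passed at either step, against 1.06% and 2.47% of all probes tested. The rule took the probes by the size of these very steps, and the counts are again a description.

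Each slide carried the full dose series once, which allowed the rise to be read within a slide. Of the 100 probes, 64 rose at every step on slide 1, 13 on slide 2 and 25 on slide 3. Over all always-detected probes the shares were 8.11%, 1.86% and 6.47%. The rule chose the 100 on these same arrays, so the counts are a description. On slide 2 the step from low to medium U was upward in 34 of the 100 probes, with a median of -0.15, and in 34.6% of all always-detected probes, with a median of -0.13. On slide 3 the step from control to low U was upward in 45, with a median of -0.06, and in 47.5% of all always-detected probes, with a median of -0.03. Both counts were thus near those of all probes on the same arrays. In the other combinations of slide and step, 63 to 94 of the 100 were upward, against 47.6% to 59.4% of all always-detected probes. Only 14 probes rose at every step on exactly 2 slides, while 20 did so on no slide although their group means did. These counts have no share over all always-detected probes here. On all 3 slides, 4 probes rose at every step (0.0733% of all always-detected probes). The 4 were P4HB, the RPE-spondin precursor, probe 23849 and probe 31205. The last was at 0.07, -0.77 and -0.08 in the control, 0.24, 0.19 and 0.72 at low U, 0.49, 0.85 and 0.49 at medium U, with 0.62, 1.07 and 0.95 at high U. Every exposed array lay above every control.

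To read the pattern in arrays that had no part in the choice, the same rule was applied to 2 slides at a time and the 100 probes so chosen were read on the slide left out. High U lay above the control in 90, 92 and 76 of the 100 probes on slides 1, 2 and 3, against 52.4%, 49.9% and 50.6% of all always-detected probes. The median rise was 0.72, 0.72 and 0.41, against 0.04, 0.00 and 0.01 over all always-detected probes. On each left-out slide, high U thus lay above the control in most of the probes ranked highest on the others. Each reading compares 1 array of each group, and the probes share the deviations of those arrays, so their number adds no replication.

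Most of that rise lay in the step from control to low U, which was upward in 87, 91 and 68 of the chosen probes on slides 1, 2 and 3 (54%, 59.4% and 47.5% of all always-detected probes). Its median was 0.57, 0.78 and 0.27. The step from low to medium U was upward in 60, 9 and 68 of them (47.6%, 34.6% and 55.5%), with medians of 0.07, -0.62 and 0.19. The step from medium to high U was upward in 60, 87 and 51 (51.8%, 53.8% and 49.3%), with medians of 0.08, 0.63 and 0.01. From low to high U directly, 70, 46 and 63 rose (53.9%, 37.1% and 55.2%). A climb through every dose was read in 23, 3 and 16 of the chosen probes on the slide left out, against 8.11%, 1.86% and 6.47% of all always-detected probes. From low to medium U, the direction read on slide 2 thus differed from that on slides 1 and 3. The low U array of slide 2 (replicate 2) had 217 spots marked as outliers, against 10 to 54 on the other arrays. Whether this bears on that step was not tested. With 1 array of a group on a slide, this has no test.

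The choice of probes changed with the slides used. Leaving out slide 1, 2 or 3 gave lists that shared 28, 34 and 26 probes with the 100. In all 276 probes were chosen at least once, 20 of them without 2 of the slides in turn, and 2 whichever slide was left out. Those 2 were BRD3 and P4HB. Of the 100 probes, 68 were on at least 1 of the 3 lists.

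The 100 probes resembled the other always-detected probes in where they came from and differed in brightness. Numbered contigs were the source of 71 (71.7% of all always-detected probes), rainbow trout UniGene clusters (named OM) of 16 (20.1%) and salmon UniGene clusters (named SS) of 12 (7.55%), and 1 probe was marked as antisense (0.626%). Their median level was 2.08 against 0.72 over all always-detected probes, and 64 lay above that value. For the 13 probes printed in 2 spots, the spots of a probe on an array differed by a median of 0.13.

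A second probe on the same contig existed for 2 of the 100. The antisense probe 24605 had group means of 1.66, 1.91, 2.10 and 2.29, whereas probe 24604 on the other strand of its contig, detected on all 12 arrays, was at -0.60, -1.20, -1.33 and -1.25. The strands thus ran in opposite directions from control to high U, up by 0.63 and down by 0.66. Probe 2225, one of the brightest of the 100 with means of 8.31, 8.85, 9.06 and 9.26, had an antisense partner that was well above background on only 1 array. None of 9 hepatocyte marker symbols could be tied to a probe, and the labelled tissue was therefore not checked against its markers.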

How the data were processed

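The authors scanned the arrays with Agilent Feature Extraction 10.7 and deposited, per array, the background-subtracted intensity of each spot with no scaling between arrays. They also deposited a table of log2 values made in GeneSpring GX 11.0, whose normalization method is not given in the sources used here, and it served as an alternative. Control spots were left out, each array's 75th percentile was subtracted on the log2 scale, and the spots of a probe were averaged. The rule for the 100 probes kept spots marked as outliers, whereas printed levels and the fit left them out. Groups were compared with limma 3.58.1 in R 4.3.3 in 1 fit over 12 arrays, for probes that were well above background on all 3 arrays of some group, with Benjamini-Hochberg adjustment (threshold 0.05, fold minimum 1.5). The fit was also run on simulated arrays with known changes, independent noise and no slide effect. That check does not describe its performance on these data, where arrays of a slide tended to deviate together. Tables were made with Python 3.11.15, pandas 2.3.3 and numpy 2.4.6.

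The members, gene lists and tests were chosen with earlier results of these data known. Members named are the 10 of highest score, any whose groups were in dose order without overlap (none), those with a gene name or on a fixed list, and the 3 on either side of the limit of 100, and others are named where a count of 7 or fewer needed it, after their values were seen. Names came from matching fold changes computed from the deposited log2 table to the study's gene lists, of which only a part was used here. The normexp alternative used the median spot intensity, as the files used here have no mean. Alternatives were other background corrections, scalings, filters, outlier handling, blocks, fits of only the groups compared, the methods' one-way test and left-out arrays and slides. No spot was saturated (0 on every array), and the number of arrays limits the precision.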

Additional observations from a re-analysis of the deposited data

How the results depend on the processing

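Scaling to the spike-in probes was added after seeing the data. The rule picked 36 of the 100 probes again with normexp background correction, 65 with median scaling, 30 without a filter on dim probes and 0 with spike-in scaling, and the 100 kept all 3 steps above 0 in 64 with normexp and in 0 with spike-in scaling. The filter on all 12 arrays is the rule's own and gave no separate pick. Counts of calls are given as all probes, both directions, then the 100 probes. Where a count of the 100 stands alone, no share over all probes is given beside it, so nothing is read from it. The F-test (1420 and 7) called 3262 and 21 with normexp, 16913 and 80 with spike-in scaling, 5336 probes without a filter and 2957 with the slide as a block. At low U (1834 and 4) calls were 758 and 2 without a filter, 14849 and 75 with spike-ins, 3646 and 8 with the slide block, 1 and 0 with only the groups compared, and 12 of the 100 with normexp. At medium U (3411 and 11) calls were 13053 probes without a filter, 5188 with the slide block, 18949 and 99 with spike-ins, 1648 and 5 with only the groups compared, and 34 of the 100 with normexp. At high U (1093 and 13) calls were 351 and 6 without a filter, 603 with spike-ins, 2036 with the slide block, 1 and 0 with only the groups compared, and 21 of the 100 with the filter on all 12 arrays. From medium to high U (0 probes, either direction) 6136 were called without a filter and 10678 with spike-ins. These counts join both directions, so they do not describe a rise. With spike-in scaling the mean of the 100 probes fell at this step, from 1.76 to 1.30. What caused the shifts in the counts of calls was not tested. Samples of 1 replicate number did not deviate together (r from -0.27 to 0.47, median -0.01 over 18 pairs), whereas arrays of 1 slide tended to (r from -0.04 to 0.47, median 0.26), and with the replicate number as a block the F-test called 784 probes and high U 652. Leaving out arrays or slides, the rule picked 26 (without slide 3) to 82 (without control replicate 3) again, all 3 steps stayed above 0 in 56 to 99 and the median rise was 0.70 to 1.19. The F-test then called 0 to 1455 probes and 0 to 8 of the 100, low U 0 to 2759 and 0 to 6, medium U 0 to 4238 and 0 to 17, high U 0 to 1780 and 0 to 27, the step from low to medium U 0 to 5 and 0 of the 100, and the step from medium to high U 0 and 0. Of 540 alternative values for 20 named probes at high U (0.32 to 3.00, log2), 471 kept their direction and side of the threshold, 62 lost the call, 7 gained it and 0 reversed. The values kept include those of probes not called at high U that stayed uncalled. The losses fall only on the called probes. Among these 20, those were the 6 with a gene name and probes 19205 and 31205, so the share of values kept overstates how stable the calls were.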
